A study of Homo sapiens with 3 samples.

Results

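The 43 genes described here encode the machinery that copies DNA in S phase, together with genes that supply its nucleotides and open that phase. They were taken from a fixed list of gene symbols, and all 43 were found among the 19049 genes of the expression table. RNA sequencing had been done on MDA-MB-231 cells, a human breast cancer line of basal-like, mesenchymal type, with 1 library for each of 3 forms of the co-repressor KAP1 (gene TRIM28). By their titles all 3 cell populations carried an shRNA against KAP1, the control included, and by the design text they expressed wild-type KAP1 (wt), KAP1 with a serine changed to alanine (S473A) or KAP1 with that serine changed to aspartate (S473D). Alanine cannot carry a phosphate and aspartate adds a negative charge that is often used to imitate one. How the forms were delivered, whether each population was a clone, and the phase or density of the cultures were not given in the sources used here. A library of cells with their own KAP1 left intact was not analysed here.

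Origins are licensed in G1, when the origin recognition complex, CDC6 and CDT1 load the ring of MCM2 to MCM7 onto DNA. In S phase CDC45 and the GINS complex turn that ring into an active helicase, RPA coats the exposed single strands, and DNA polymerase alpha with primase lays down primers that polymerases delta and epsilon extend. The RFC complex loads the sliding clamp PCNA, FEN1 and LIG1 finish the lagging strand, and ribonucleotide reductase and thymidylate synthase supply nucleotides. Many of these genes are classic targets of E2F transcription factors, which are released from RB proteins as cells enter S phase.

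Because the E2F site is the shared control element known for this machinery, the promoters were searched for it first. A promoter entry was found by symbol for 36 of the 43 genes in the RefSeq table (GRCh38.p14). The other 7 are MCM4, MCM5, GINS4, POLD3, CCNE2, RPA2 and RPA3. The words searched were TTTCCCGC, TTTCGCGC, TTTGGCGC and TTTGCCGC, on both strands, in the 250 bases before the annotated start. At least 1 word was present in 13 of the 36 promoters (36.1%), against 404 of 8597 promoters of genes tested (4.70%) and 2.79% of all 27305 promoters in the table. The 13 genes were MCM3, MCM6, MCM7, GINS2, CDT1, POLA1, POLA2, POLE, PCNA, RFC3, LIG1, TYMS and E2F1. CCAAT, the NF-Y word, was present on either strand in 21 of the 36 (58.3%), against 36.1% of genes tested. The E2F word says nothing of where a factor was bound in these cells.

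The stretches below are shown because they carry that word in genes from different steps of replication that stood on opposite sides of 0 in the S473D library. Each is 60 bases before the start, 5′ to 3′ along the gene, with the E2F words in capitals. In MCM6 a word on each strand overlaps the other, and E2F1 holds separate words.
PCNA: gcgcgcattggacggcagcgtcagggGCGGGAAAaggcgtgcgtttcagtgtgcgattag
GINS2: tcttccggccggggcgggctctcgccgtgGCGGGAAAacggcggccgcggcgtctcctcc
MCM6: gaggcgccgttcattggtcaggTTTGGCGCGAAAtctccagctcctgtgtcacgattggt
CDT1: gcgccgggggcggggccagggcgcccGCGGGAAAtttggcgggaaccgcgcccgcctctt
LIG1: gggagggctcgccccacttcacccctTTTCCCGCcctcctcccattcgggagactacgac
POLE: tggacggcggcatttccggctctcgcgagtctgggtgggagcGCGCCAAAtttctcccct
E2F1: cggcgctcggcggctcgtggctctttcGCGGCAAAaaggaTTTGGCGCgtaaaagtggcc
These windows lie at chr20:5126648-5126707 (minus strand), chr16:85688955-85689014 (minus), chr2:135876496-135876555 (minus), chr16:88803728-88803787 (plus), chr19:48170425-48170484 (minus), chr12:132687343-132687402 (minus) and chr20:33686386-33686445 (minus) of GRCh38.p14, before the RefSeq start of each gene. Of these 7 genes, PCNA, GINS2 and MCM6 were higher in the S473D library than in wt, and CDT1, LIG1, POLE and E2F1 were lower, although GINS2 and MCM6 changed side when the libraries were rescaled. Over all 13 genes with the word the median difference of S473D from wt was -0.15 on the log2 scale, with 5 higher. The 23 members without it had a median of -0.02, with 11 higher. Genes tested had medians of -0.07 with the word and -0.11 without it.

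Levels were read numbers scaled by transcript length and library depth (RPKM), and where 3 levels follow a gene they stand in the order wt, S473A, S473D. Differences were computed on log2(RPKM + 1). A single library per form leaves no replicate error and no test, and genes at least 1.5-fold apart on that scale are named by size alone. Ratios of RPKM carry a 95% counting interval from estimated depths of 25800000 (wt), 29500000 (S473A) and 24000000 (S473D) reads. These intervals cover counting error only, and the read counts behind them are approximate. TRIM28, which the shRNA targets and the KAP1 forms also encode, stood at 28.7, 32.3 and 25.6 RPKM, so its level checks neither the depletion nor the form expressed. Of the 5 markers of the line, VIM was at 738, 740 and 673 RPKM and AXL, CD44, CAV1 and MSN were at 87.9 to 190 RPKM. Their median difference was 0.00 in S473A and -0.39 in S473D, with MSN at -0.55, AXL at -0.48, CD44 at -0.39 and CAV1 at 0.18. Of 9 epithelial markers ESR1, PGR, CDH1 and EPCAM were under 1 RPKM in all libraries, as were the 3 blood and endothelial markers matched of 6 (PTPRC, PECAM1 and CDH5). ERBB2, GATA3 and FOXA1 were at 1.41 to 7.94 RPKM and KRT8 and KRT18 at 126 to 188, and the 9 summed to 314, 307 and 375 RPKM. The part of these markers in the results was not tested. The S473D library stood apart in its sum of RPKM, 393381 against 330667 for wt and 330916 for S473A. In bulk RNA, fewer cells in S phase and less RNA per cell cannot be told apart.

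All 43 genes were well expressed, from 7.36 to 147 RPKM in wt with a median of 23.8, against a median of 10.1 for the 11570 genes tested. TYMS, POLD2 and PCNA were the 3 highest in wt and in S473A, in that order, and PCNA, POLD2 and TYMS in S473D. POLA1 was the lowest member in wt and S473A, and CCNE1 in S473D. Summed over the 43 genes the level was 1597, 1602 and 1712 RPKM. Without PCNA the sums were 1482, 1486 and 1488, so nearly all of the higher sum in S473D was PCNA. As a share of all RPKM in each library, however, the 43 genes held 0.483%, 0.484% and 0.435%, lowest in S473D.

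**Figure D1:**
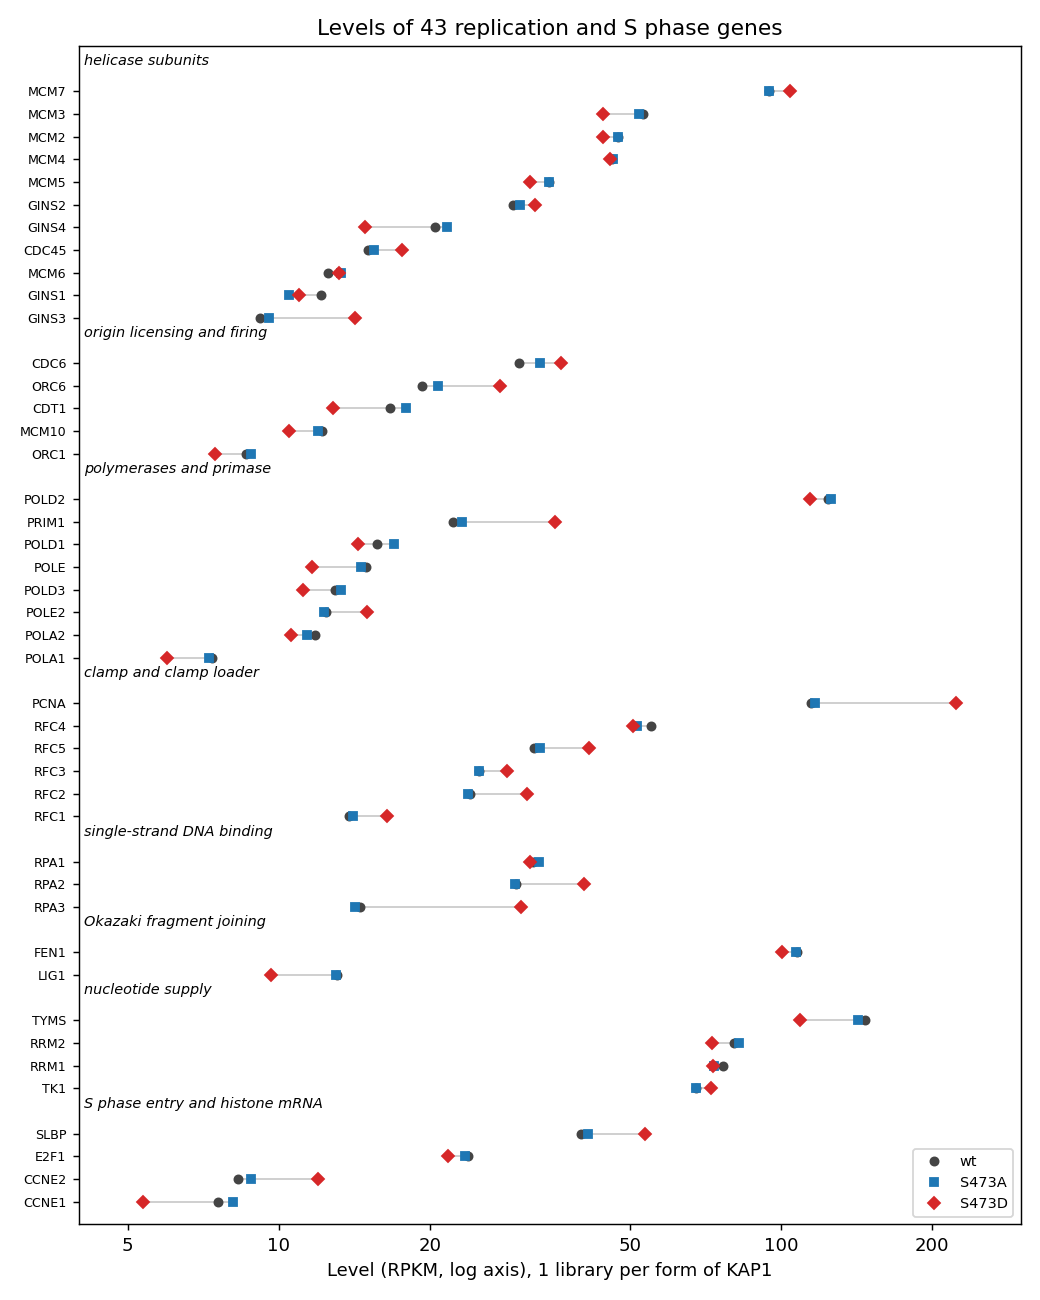
Levels of the 43 genes in RPKM (log axis) by role, with 1 point per library (wt circles, S473A squares, S473D diamonds). Circles and squares nearly coincide for most genes, while PCNA moves from 115 and 117 to 224 RPKM and RPA3 from 14.5 and 14.2 to 30.3 in S473D.

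The first comparison asked whether removing the phosphate acceptor alone was accompanied by a different level of these genes. None of the 43 was 1.5-fold higher or lower in S473A than in wt, against 0.0951% of all genes tested higher and 0.147% lower. Differences ran from -0.19 for GINS1, a subunit of the helicase cofactor GINS, to 0.13 for CDC6, which helps load the MCM ring. GINS1 stood at 12.1 RPKM in wt and 10.5 in S473A, and CDC6 at 30.1 and 33.1. The median was 0.01 with 24 genes higher and 19 lower, against a median of 0.00 with 49.8% higher and 50.2% lower among all genes. The spread of the 43 differences was 0.06 (SD over genes), and that of all genes 0.10.

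The counting interval of the ratio left 1 for 6 of the 43 genes, 14.0% against 15.4% of the 11302 genes with a known length. CDC6 (ratio 1.10, interval 1.04 to 1.16), CDT1, the other loader, and POLD1, the catalytic subunit of polymerase delta, were on the high side, 3 genes against 7.57% of all genes. RFC4 of the clamp loader, GINS1 (ratio 0.865, interval 0.792 to 0.944) and RRM1 of ribonucleotide reductase were on the low side, 3 genes against 7.8% of all genes. A share this close to the background is not a result about these genes. With each gene's median coding length in place of its main transcript, as described below, the intervals of CDT1, POLD1 and RFC4 held 1. A shorter length lowers the estimated reads and so widens the interval at the same ratio.

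The S473D library differed from wt by 1.5-fold or more in 3 of the 43 genes, all higher: PCNA, RPA3 and PRIM1. The share was 6.98%, against 6.83% of all genes tested, and none was as much lower, against 3.23%. RPA3 alone was 2-fold higher, against 0.994% of all genes. With trends on transcript length and GC removed, as described below, RPA3 was the only member 1.5-fold higher and TYMS was as much lower. Of 11302 genes 199 were then as much higher and 374 as much lower. Of the 43 genes 19 were higher and 24 lower (55.8%), against 39.3% higher and 60.7% lower among all genes, with a median of -0.07 against -0.10. The spread over the 43 genes was 0.36 (SD) and over all genes 0.37. On the deposited scale the set therefore differed by about as much and as often as genes at large, and what follows concerns single members and subunits. With trends removed 24 members were higher and 19 lower, against 3915 and 7387 of 11302 genes, with medians of 0.03 and -0.10. On median coding lengths 19 members were higher and 24 lower, with a median of -0.02.

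With main transcript lengths the interval left 1 for 40 of 43 genes, 18 higher and 22 lower, against 72.3% of all genes, 27% higher and 45.3% lower. The high level of the members narrows their intervals. The exceptions were MCM4, MCM6 and RPA1. On median coding lengths, with fewer estimated reads, the intervals of RFC4, GINS2, POLA2, POLD1, POLD3 and TK1 also held 1. Which side of 0 a small difference fell on depended on the scale of the S473D library. Over the deposited scale and 3 rescalings, 13 of the 43 genes were higher in S473D each time, 19 were lower each time and 11 changed side, and the changes of side are named below. Removing the trends on length and GC put 9 genes on the other side of 0, and these are named with the length results. Genes keeping or changing side were not counted over all genes, so these counts do not set the members apart.

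**Figure D2:**
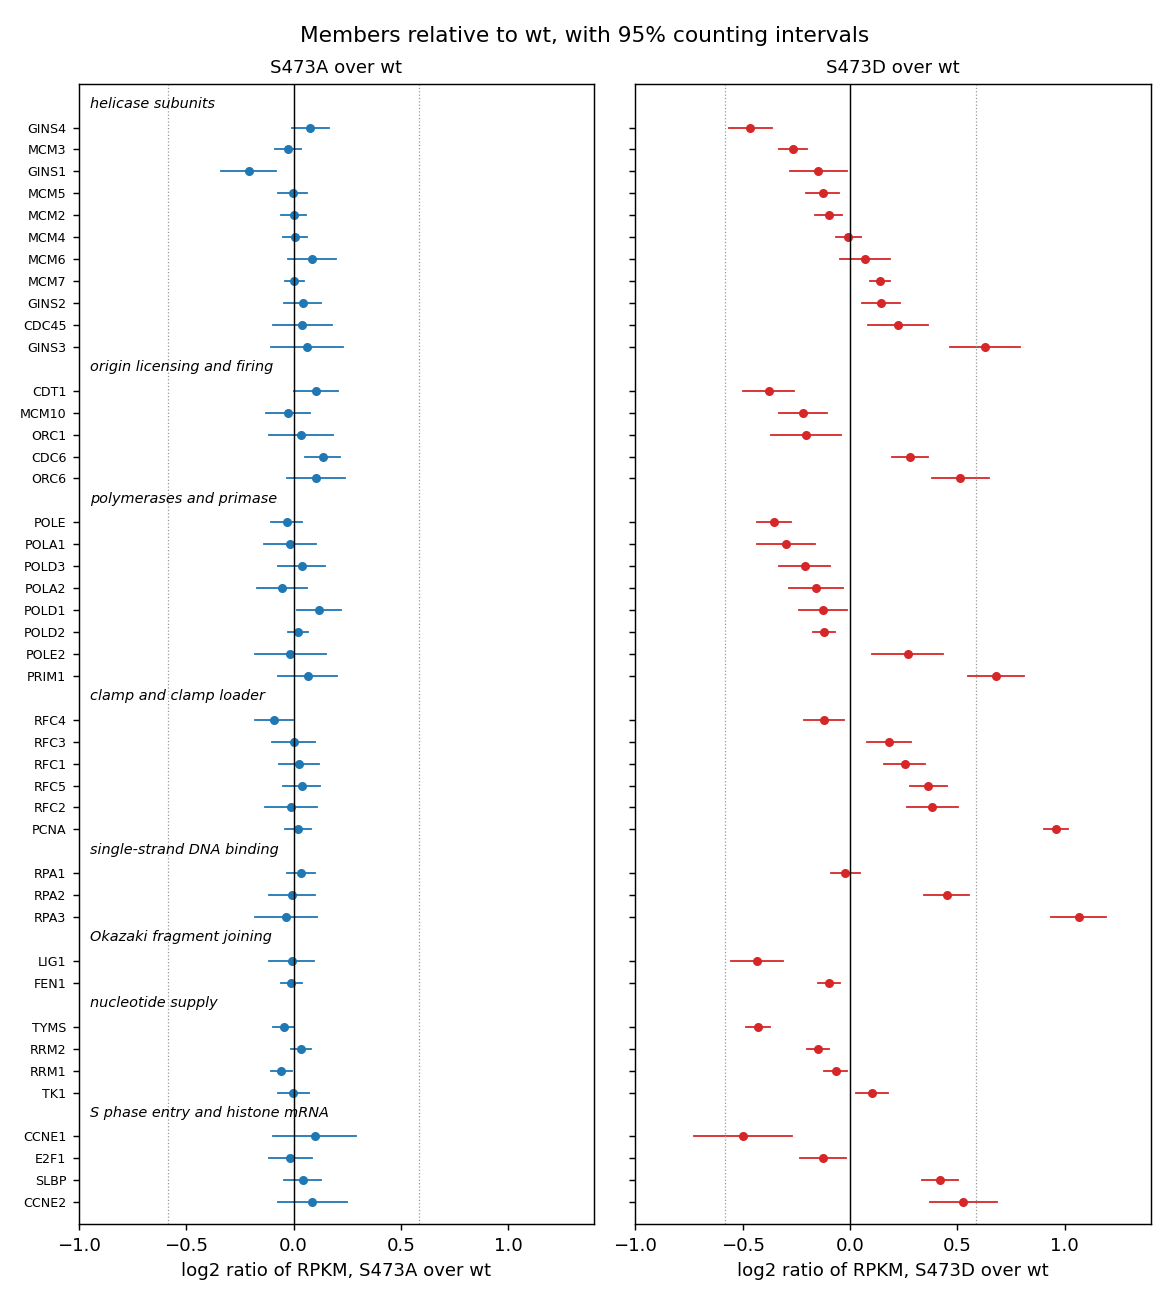
Log2 ratio of RPKM to wt for S473A (left) and S473D (right) by role, with points for the ratio, bars for the 95% counting interval and dotted lines at 1.5-fold. In S473A every point lies inside the dotted lines, while in S473D PCNA, RPA3, PRIM1 and GINS3 lie past the right dotted line, GINS3 only on this scale without the added 1.

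Among the clamp and clamp loader genes, PCNA, the ring that holds polymerases on DNA, was at 115, 117 and 224 RPKM. S473D was alone in being high, with a ratio to wt of 1.94 (interval 1.87 to 2.02) and to S473A of 1.91. The loader subunits differed far less. RFC1, its large subunit, stood at 13.8, 14.0 and 16.4 RPKM, and RFC2 at 24.0, 23.8 and 31.3. RFC3 stood at 25.1, 25.1 and 28.4, and RFC5 at 32.3, 33.2 and 41.6. These 4 loader subunits were all higher in S473D, though RFC3 changed side on rescaling to an equal sum. RFC4 was the only one lower, at 55.1, 51.7 and 50.7 RPKM. There wt stood 1.09-fold above S473D (interval 1.02 to 1.16, reaching below 1 on the median coding length). The summed level of the 6 genes was 265 RPKM in both wt and S473A and 392 in S473D.

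PCNA's count is uncertain in part. The gene has 3 named pseudogenes, and the antisense gene PCNA-AS1 was at 2.37, 0.869 and 6.40 RPKM. The strand of counting was not given in the sources used here, so reads of the pair cannot be told apart. PCNA-AS1 was far below PCNA in each library. RFC4 overlaps EIF4A2, an abundant gene on the opposite strand at 265, 255 and 345 RPKM.

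RPA, which binds single-stranded DNA, is a trimer, and its subunits parted in S473D. RPA3, the smallest, was at 14.5, 14.2 and 30.3 RPKM, a ratio to wt of 2.09 (interval 1.91 to 2.29) and to S473A of 2.14. RPA2, the subunit phosphorylated under replication stress, was at 29.7, 29.6 and 40.6 RPKM. RPA1, the large DNA-binding subunit, was at 32.1, 32.9 and 31.6 RPKM, and its ratio of 0.985 had an interval that held 1 (0.939 to 1.03), and it changed side on rescaling. The level of RPA3 relative to RPA1 was 0.452, 0.430 and 0.959 in the 3 libraries. RPA3-AS1, named as antisense to RPA3, was at 5.52, 4.72 and 6.26 RPKM, so it too was highest in S473D. RPA2 has 3 named pseudogenes, with which its reads could be shared.

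Among the polymerases and primase, PRIM1, the catalytic primase subunit, was at 22.2, 23.2 and 35.5 RPKM. Its ratio was 1.60 to wt (interval 1.46 to 1.75) and 1.53 to S473A. Its partner POLA1, the catalytic subunit of polymerase alpha, was at 7.36, 7.27 and 5.99 RPKM and thus on the opposite side, so that PRIM1 stood 3.01-fold, 3.19-fold and 5.93-fold above POLA1 in the 3 libraries. POLA2, the accessory subunit of polymerase alpha, was at 11.8, 11.4 and 10.6 RPKM. Exons of PRIM1 overlap those of HSD17B6 on the opposite strand, at 1.36, 1.38 and 2.37 RPKM.

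Polymerase delta showed little range. POLD1, its catalytic subunit, was at 15.7, 17.0 and 14.4 RPKM. POLD2, an accessory subunit and the most abundant of the 8 genes, was at 124, 126 and 114, and POLD3, another, was at 12.9, 13.3 and 11.2. In polymerase epsilon the catalytic POLE was at 14.9, 14.6 and 11.7 RPKM, with wt 1.28-fold above S473D (interval 1.21 to 1.35). Its accessory subunit POLE2 lay on the other side, at 12.4 RPKM in wt and 12.3 in S473A, with S473D 1.20-fold above wt (interval 1.07 to 1.35). Thus 6 of the 8 genes were lower in S473D and the primase and POLE2 higher, on the deposited scale and the 3 rescalings. With length and GC trends removed 4 of the 8 changed side: POLE came to 0.03, POLA2 to 0.04, POLD1 to 0.11 and POLE2 to -0.09.

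In the helicase, the 6 subunits of the MCM ring were close to level across the libraries. MCM2 stood at 47.5, 47.5 and 44.3 RPKM, MCM3 at 53.2, 52.3 and 44.3, and MCM4 at 46.0, 46.2 and 45.7. MCM5 stood at 34.6, 34.5 and 31.6, MCM6 at 12.5, 13.3 and 13.2, and MCM7 at 94.6, 94.8 and 104. The difference of S473D from wt within the ring ran from -0.26 for MCM3 to 0.14 for MCM7. Rescaling moved MCM2, MCM4, MCM6 and MCM7 across 0, and MCM3 and MCM5 were lower each time, although MCM5 came to 0.05 with length and GC trends removed. MCM7 was 7.54-fold, 7.13-fold and 7.91-fold above MCM6 in the 3 libraries, so the subunits of this hexamer kept unequal transcript levels throughout. Exons of MCM2 overlap those of TPRA1 on the opposite strand, at 16.5, 16.6 and 22.5 RPKM.

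The GINS subunits were less uniform. GINS3 was at 9.17, 9.57 and 14.2 RPKM, a ratio to wt of 1.55 (interval 1.38 to 1.73), and its difference of 0.58 on log2(RPKM + 1) lay just under the size used here. GINS4 was at 20.5, 21.6 and 14.9 RPKM, with wt 1.38-fold above S473D (interval 1.29 to 1.48). GINS3 therefore stood at 0.447, 0.442 and 0.953 of the GINS4 level. GINS1 was at 12.1, 10.5 and 11.0, and GINS2 at 29.3, 30.2 and 32.4. CDC45, which joins MCM and GINS in the helicase, was at 15.1, 15.5 and 17.6 RPKM, and both it and GINS2 changed side on rescaling. The sum of the 11 helicase genes was 375, 376 and 373 RPKM.

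In origin licensing, the loaders of the MCM ring parted in the same library. ORC6, the smallest origin recognition subunit, was at 19.3, 20.7 and 27.5 RPKM, a ratio to wt of 1.43 (interval 1.30 to 1.57). CDT1, whose supply limits licensing to G1, was at 16.6, 17.9 and 12.8, with wt 1.30-fold above S473D (interval 1.20 to 1.41). CDC6 was at 30.1, 33.1 and 36.6 RPKM. ORC1, the largest origin recognition subunit, was at 8.59, 8.79 and 7.45, and MCM10, a firing factor, at 12.2, 12.0 and 10.5. So ORC6 and CDC6 were higher in S473D on the deposited scale and the 3 rescalings and CDT1, ORC1 and MCM10 lower.

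On the lagging strand, LIG1, the ligase that seals Okazaki fragments, was at 13.1, 13.0 and 9.67 RPKM, with wt 1.35-fold above S473D (interval 1.24 to 1.47). FEN1, the flap nuclease that acts before it, was at 108, 107 and 101 RPKM, with wt 1.07-fold above S473D (interval 1.03 to 1.11), and it changed side on rescaling. FEN1 has 1 named pseudogene and its exons overlap those of TMEM258 and FADS2.

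TYMS, thymidylate synthase and the highest member in wt, was at 147, 142 and 109 RPKM. Here wt stood 1.35-fold above S473D (interval 1.29 to 1.40), and PCNA passed TYMS, from 0.784 of its level in wt and 0.821 in S473A to 2.05 times in S473D. The large and small subunits of ribonucleotide reductase were close to level: RRM1 at 76.6, 73.6 and 73.1 RPKM and RRM2 at 80.8, 82.7 and 72.8. TK1, the S phase thymidine kinase, was at 67.8, 67.7 and 72.7. Its ratio to wt was 1.07 (interval 1.02 to 1.13, or 0.989 to 1.16 on its median coding length). RRM1 and TK1 changed side on rescaling, while RRM2 and TYMS were lower each time. TYMS has 2 named pseudogenes and shares its locus with ENOSF1 on the opposite strand, which was at 8.10, 7.92 and 7.45 RPKM. RRM2 has 3.

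At S phase entry, the cyclins that drive CDK2 stood apart from each other in S473D. CCNE1 was at 7.59, 8.12 and 5.37 RPKM, with wt 1.41-fold above S473D (interval 1.21 to 1.66). CCNE2 was at 8.29, 8.80 and 12.0, a ratio to wt of 1.44 (interval 1.29 to 1.61). CCNE2 thus stood at 1.09, 1.08 and 2.23 times CCNE1. Exons of CCNE2 overlap those of INTS8 on the opposite strand, at 7.20, 7.43 and 7.86 RPKM, so reads of the pair cannot be told apart. E2F1 was at 23.8, 23.5 and 21.8 RPKM. SLBP, which binds the stem-loop of histone mRNA, was at 40.0, 41.2 and 53.5. All 4 kept their side of wt on the deposited scale and the 3 rescalings.

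The comparison of S473D with S473A shares the S473D library with the one above and is not independent of it. The same 3 names, PCNA, PRIM1 and RPA3, were at least 1.5-fold higher, 6.98% against 6.86% of all genes, and none was as much lower, against 3%. With length and GC trends removed RPA3 stayed past that size, PCNA came to 0.50 and PRIM1 to 0.05, and TYMS and CCNE1 were 1.5-fold lower. Of 11302 genes 192 were then as much higher and 387 as much lower. CCNE1 had the lowest difference, -0.52, with S473A 1.51-fold above S473D in RPKM (interval 1.30 to 1.76) though under the size used on log2(RPKM + 1). RPA3 alone was 2-fold higher, against 1% of all genes. Of the 43 genes 19 were higher and 24 lower, against 39.3% and 60.7% of all genes, and the median was -0.02 against -0.10. The counting interval left 1 for 36 genes, 18 on each side, against 73.4% of all genes, 27.6% higher and 45.8% lower. On median coding lengths those of RFC1, GINS2, POLD3, TK1 and FEN1 held 1. In all 3 high genes wt and S473A lay close together and S473D lay apart from both.

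Transcript length moved with the S473D difference, in these genes and in genes at large. Lengths came from GENCODE release 29, and the main transcript of a gene was its longest with a RefSeq record, otherwise its longest. Over the 43 genes the difference of S473D from wt had a Pearson r of -0.55 with log2 length (Spearman rho -0.54), and over 11302 genes r was -0.46 (rho -0.44). For S473A the values were -0.04 and -0.01. The points share the same pair of libraries, so these are descriptions. With GC content of the transcript r was -0.37 over the 43 genes and -0.23 over all.

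Of the 3 genes with transcripts under 1500 bases, PCNA (1359 bases) and PRIM1 (1393) were higher in S473D and RFC4 (1448) was lower, where 76.3% of all genes of that length were higher with a median of 0.33. Of the 15 genes from 1500 to under 2500 bases 11 were higher, with a median of 0.25, against 54.3% of all genes of that length and a median of 0.04. Among the 18 from 2500 to under 4000 bases 5 were higher, and among the 7 of 4000 bases or more only RFC1 was. All genes in those classes were higher in 35.4% and 19.6%. Many of the paired subunits named above differ in length in the same sense: PRIM1 1393 bases against POLA1 5486, RPA3 2020 against RPA1 4340, GINS3 2274 against GINS4 3841. CCNE1 (2043 bases) and CCNE2 (2724) are ordered the other way.

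**Figure D3:**
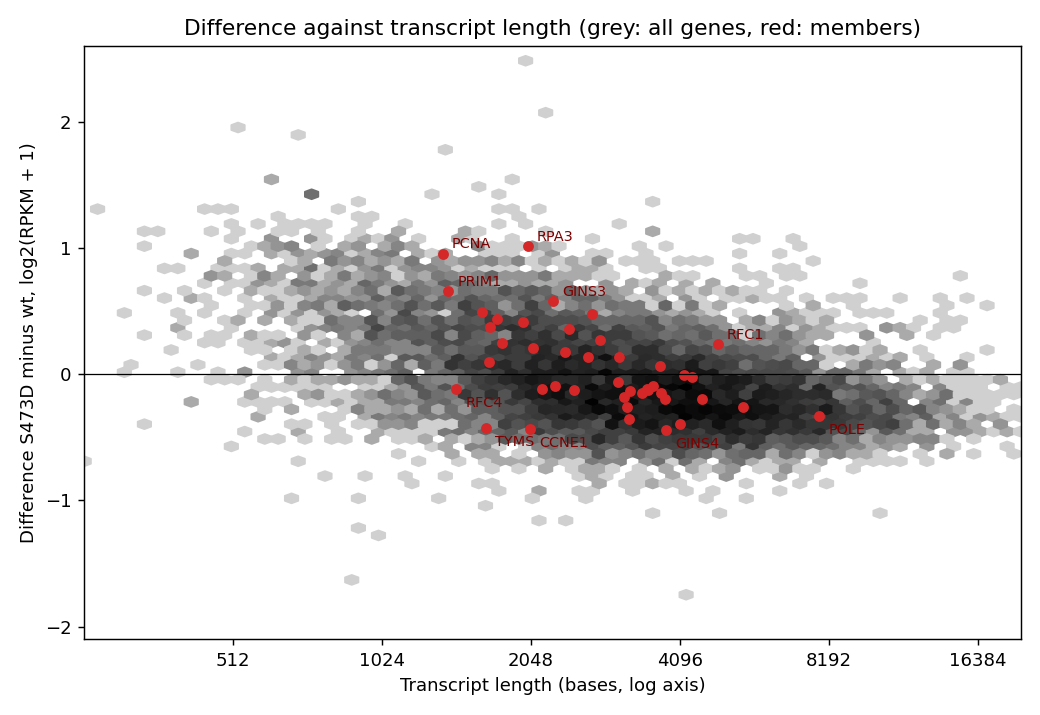
Difference of S473D from wt on log2(RPKM + 1) against transcript length (log axis) for the 43 genes (red) and all genes with a length (grey, darker for more genes, those beyond the length axis not drawn). Both clouds slope down, with r of -0.55 and -0.46, and TYMS, CCNE1 and RFC4 lie low for their length.

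When smoothed trends on length and GC were taken out of the differences, keeping the median of all genes, RPA3 stayed highest at 0.79, followed by PCNA at 0.53 and GINS3 at 0.47. PRIM1 came to 0.13, close to the rest. At the other end TYMS came to -0.65, CCNE1 to -0.51, RFC4 to -0.50 and GINS4 to -0.35, while LIG1 came to -0.17. The genes on the other side of 0 were MCM2, MCM4, MCM5, RFC3, POLA2, POLD1, POLE, POLE2 and RPA1. RPA3 has coding transcripts of 414 to 2020 bases, and its main transcript is the longest of them. With the median coding length of each gene instead, the values were 0.89 for RPA3, 0.77 for PCNA, 0.34 for PRIM1 and -0.52 for TYMS. On those lengths 4 genes lay on the other side of 0: MCM4, RFC1, RFC3 and E2F1. Such changes of side were not counted over all genes. The spread of the 43 genes was then 0.27 with main transcripts and 0.30 with median lengths, and that of all genes 0.29 with main transcripts. The source of the trend was not tested.

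**Figure D4:**
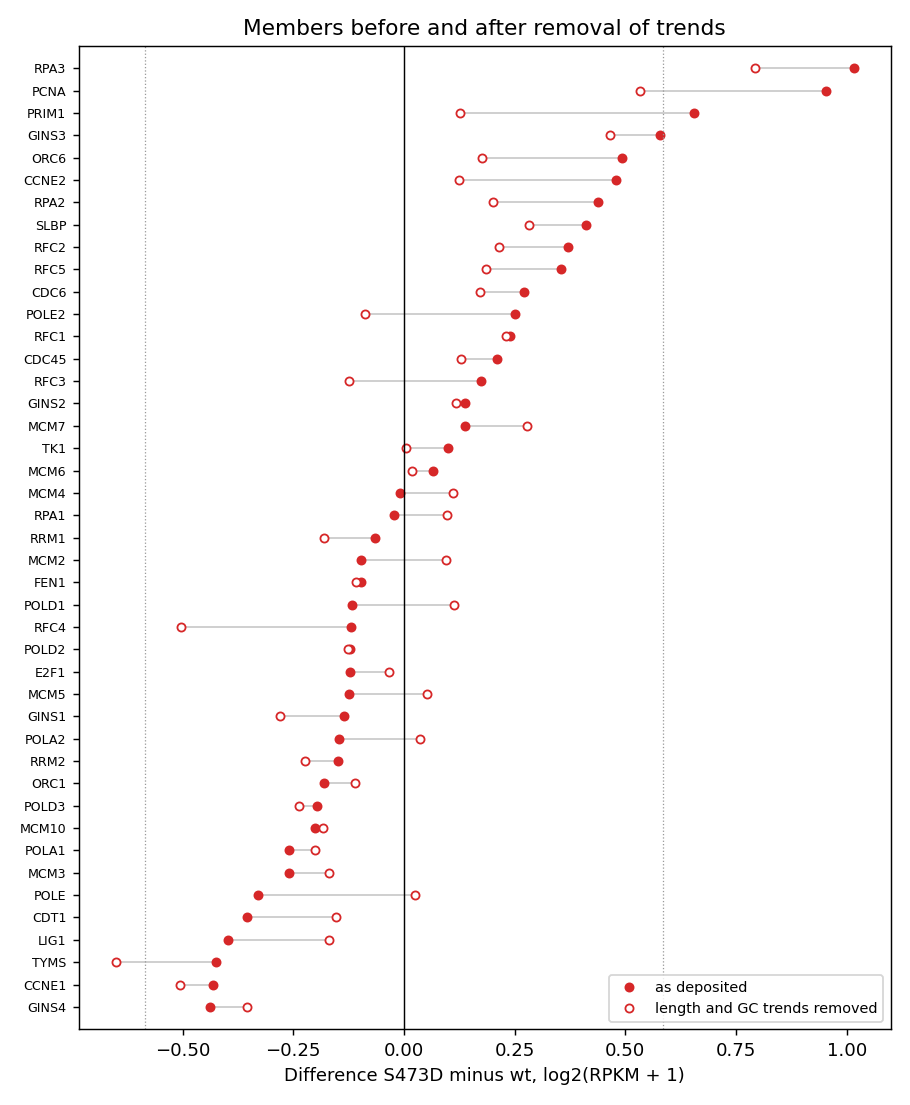
Difference of S473D from wt for each of the 43 genes on log2(RPKM + 1), as deposited (filled) and with length and GC trends removed (open), with dotted lines at 1.5-fold. RPA3 alone stays past the right line, PRIM1 moves from 0.66 to 0.13, and TYMS passes the left line at -0.65.

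Other genes of the pathway were taken from 3 further lists. Of 49 other replication genes, 24 were higher and 25 lower in S473D than in wt, against 39.3% and 60.7% of all genes. Their median was 0.00, against -0.10. In this list 2 were at least 1.5-fold higher and 2 lower, against 6.83% and 3.23% of all genes. The highest were KIAA0101 (PCLAF, a PCNA-binding protein) at 53.3 RPKM in wt and 91.3 in S473D, GMNN (geminin, the inhibitor of CDT1) at 37.7 and 63.0, and the histone chaperone ASF1A at 11.6 and 17.0. The lowest were TICRR, an origin firing factor, at 10.1 and 6.02, TOP1 (topoisomerase I) at 69.5 and 45.8, and SSRP1 of the FACT histone chaperone at 166 and 114. None of the 49 was 1.5-fold apart between S473A and wt. With trends removed KIAA0101 was at 0.47, GMNN at 0.23, ASF1A at 0.08, TICRR at -0.37, TOP1 at -0.67 and SSRP1 at -0.47. PCNA and KIAA0101 were thus both higher, and CDT1 was lower (-0.15 with trends removed) where GMNN was higher. Whether the transcripts of either pair are linked was not tested.

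Of 27 tested G1/S control genes (of 28 listed, CCND2 being under the filter), 9 were higher and 18 lower in S473D, with a median of -0.13. All genes were higher in 39.3% and lower in 60.7%, with a median of -0.10, so this list lay near the background. None of the 27 was 1.5-fold apart. FBXO5, an inhibitor of the anaphase-promoting complex, was highest at 0.30, followed by the cyclins CCND3 at 0.26 and CCNA2 at 0.24. MYBL2, an E2F target that activates late cell cycle genes, was lowest at -0.41, followed by E2F4 at -0.40 and CCND1, cyclin D1, at -0.38. With trends removed FBXO5 came to -0.03, on the other side of 0, and CCNA2 to 0.07, while CCND3 was at 0.27, MYBL2 at -0.31, E2F4 at -0.42 and CCND1 at -0.22. The spread of this list was 0.22, against 0.36 for the 43 replication genes.

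Of 24 G2 and M phase genes 12 were higher and 12 lower in S473D, against 39.3% and 60.7% of all genes. Their median was 0.01, against -0.10. In that list 4 were at least 1.5-fold higher and 1 lower, against 6.83% and 3.23% of all genes. CKS2, a CDK subunit, stood at 129 RPKM in wt and 259 in S473D, CDK1 at 71.4 and 134, and PTTG1 (securin) at 73.6 and 128. MAD2L1, also past that size, stood at 67.5 and 105. MKI67, the proliferation marker Ki-67, stood at 53.0 and 33.7, PLK1 at 69.3 and 46.0, and the spindle factor TPX2 at 105 and 70.7. With trends removed CKS2, whose transcript has 613 bases, came to a difference of 0.14, CDK1 from 0.90 to 0.39 and PTTG1 from 0.79 to 0.34. MAD2L1 was at 0.63 before and 0.61 after, still past 1.5-fold. MKI67 came to -0.38, PLK1 to -0.58 and TPX2 to -0.56. Neither this list nor the S phase genes therefore lay to 1 side, and each held members on both sides of wt. Between S473A and wt no gene of these lists was 1.5-fold apart.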

How the data were processed

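The authors deposited 1 table of log2(RPKM + 0.1) per gene for 3 libraries of total RNA extracted with TRIzol and prepared by a standard Illumina protocol, per the labels' protocols. The submitters' processing notes name Bowtie, Partek and hg19; tool versions, the annotation used and how reads were counted (rule and strand) were not given in the sources used here. Values were turned back to RPKM. Of 19076 lines, 27 with date-like or repeated symbols were left out; 178 short RNAs and genes averaging under 1 RPKM were dropped, which left 11570 to test. Differences were taken on log2(RPKM + 1), which understates the change of low genes, and named at 1.5-fold. Depths were estimated from steps of low values, of which 43.6% to 44.8% came out as whole reads within 2%. Read counts are therefore approximate, and no count-based test was run. Counting intervals are exact conditional binomial (95%) on those approximate counts, from the depths and transcript lengths. Lengths and GC used 1 GENCODE 29 transcript per gene (GRCh38); trends were removed by lowess (fraction 0.2, 2 rounds). Python 3.11.15, pandas 2.3.3, scipy 1.17.1 and statsmodels 0.14.6 were used. The steps were tried on simulated whole reads with known lengths and no GC trend, a simpler case than the deposited values. Named members were those at least 1.5-fold apart and the highest and lowest of each of 8 role groups by S473D minus wt. By the same difference the 3 highest and 3 lowest of each further list were named, with MAD2L1 added. Other members are given by their levels. The members and lists were chosen with earlier results of these data known. Alternatives were other pseudocounts, filters, scalings and folds.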

Additional observations from a re-analysis of the deposited data

How the results depend on the processing

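With 1 library per form, no value has a replicate error, and no paired analysis was possible because each group has 1 library. Between S473A and wt no member was 1.5-fold apart under any alternative run. For S473D both its scale and the trends on length and GC moved the values. Its median over all genes differed from wt by -0.10 as deposited and by -0.31 when scaled to an equal sum, and genes at least 1.5-fold higher and lower numbered 790 and 374 as deposited, 1105 and 128 after centring on the median, 1118 and 138 by trimmed mean, 292 and 1937 at equal sum, and 199 and 374 with length and GC trends removed. Against wt, members at least 1.5-fold apart numbered 3 as deposited, 5 after centring or by trimmed mean (ORC6 and GINS3 added), 7 at equal sum (PCNA and RPA3 higher, GINS4, CDT1, TYMS, LIG1 and CCNE1 lower), 1 at a fold of 2, and 2 with trends removed (RPA3 higher, TYMS lower) or with trends on median coding length removed (PCNA and RPA3 higher). Against S473A they numbered 3 as deposited, 4 after centring or by trimmed mean, 7 at equal sum, 1 at a fold of 2 and 3 with trends removed (RPA3 higher, TYMS and CCNE1 lower). Of 11570 genes 794 were so much higher than in S473A and 347 lower as deposited, and 308 and 1920 at equal sum. After centring these counts were 1133 and 130, and by trimmed mean 1136 and 141. With trends removed they were 192 and 387 of 11302. On median coding lengths they were 439 and 410, and against wt 468 and 395. The members' median against wt, -0.07, came to 0.046 by trimmed mean and -0.31 at equal sum, and their mean was 0.059. Against S473A the median, -0.02, came to 0.086 after centring and 0.087 by trimmed mean and to -0.26 at equal sum. Against wt PCNA ranged from 0.53 to 1.06, RPA3 stayed above 0.77, and PRIM1 came to 0.41 at equal sum and 0.13 with trends removed. Removing the trends was chosen after seeing the data. With main transcript lengths the counting intervals between S473A and wt held 1 for all but 6 members.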
